A study of Mus musculus with 13 samples.

Results

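The antiviral interferon-stimulated genes are a set of 41 genes that cells switch on when an interferon binds its receptor. They were followed here through the kidneys of mice injected with lipopolysaccharide (LPS), a cell-wall component of bacteria. The set was chosen by gene name, and each of the 41 names matched exactly 1 row of the 34745 genes in the deposited table. RNA from whole kidney was sequenced for 13 mice in 4 groups: knockout with LPS (3 mice), wild type with LPS (4), knockout with saline (3) and wild type with saline (3). The knockout lacks DsbA-L, a thiol-redox protein of mitochondria and peroxisomes encoded by Gstk1. The LPS dose was 10 mg/kg by intraperitoneal injection, and the saline volume was 200 µL. The sources used here do not give the strain, the age, the way the allele was made or the time from injection to sampling. Each library was taken as 1 mouse, and p-values measure the spread between these libraries.

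LPS is sensed at the cell surface by TLR4 with its partners CD14 and MD-2. Through the adaptor TRIF and the kinase TBK1 this receptor activates IRF3, which switches on interferon-beta. Secreted interferon binds IFNAR, whose kinases JAK1 and TYK2 activate the factor ISGF3, which holds STAT2 and IRF9. ISGF3 binds a DNA element called the ISRE in front of the antiviral genes. Their products block viral entry, degrade or edit viral RNA, halt translation, sense foreign nucleic acid and feed back on the pathway. Interferon-gamma acts through another element, the GAS, and IRF1 is one of its direct targets.

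The promoters were searched for the element that ISGF3 is known to bind. RefSeq promoter windows (GRCm38.p6, 250 bases before to 50 after the start site) were found for 32 of the 41 genes. Windows were not found for Mx1, Mx2, Oas2, Usp18, Parp9, Parp14, Dhx58, Zbp1 and Rtp4. The core of the ISRE, GAAA, any 2 bases and GAAA again on either strand, was present in 13 of the 32 genes (40.6%), against 3.99% of the 27025 genes with a window. The GAS, TTCNNNGAA, which reads the same on both strands, was present in 10 of the 32 (31.2%), against 9.55% of all. Below are the 250 bases before the start site, with matches to the ISRE core in capitals. The first 4 are the genes with a match and the smallest p for knockout against wild type under LPS. Xaf1 is shown as a gene without a match.
Isg15: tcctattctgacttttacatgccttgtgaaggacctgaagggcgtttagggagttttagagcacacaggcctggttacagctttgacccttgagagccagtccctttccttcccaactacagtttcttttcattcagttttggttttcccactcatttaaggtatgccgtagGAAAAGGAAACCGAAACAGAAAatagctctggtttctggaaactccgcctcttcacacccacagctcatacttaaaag
Ifit3: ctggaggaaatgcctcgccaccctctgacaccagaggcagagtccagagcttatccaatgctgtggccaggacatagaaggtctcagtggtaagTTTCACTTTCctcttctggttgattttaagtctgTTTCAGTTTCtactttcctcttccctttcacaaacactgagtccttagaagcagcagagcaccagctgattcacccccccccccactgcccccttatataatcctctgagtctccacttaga
Rsad2: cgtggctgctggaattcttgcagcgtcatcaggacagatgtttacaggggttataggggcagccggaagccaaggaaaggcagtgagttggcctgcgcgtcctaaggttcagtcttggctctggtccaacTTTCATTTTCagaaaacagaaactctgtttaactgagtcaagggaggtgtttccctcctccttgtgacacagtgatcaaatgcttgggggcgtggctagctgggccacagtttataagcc
Stat2: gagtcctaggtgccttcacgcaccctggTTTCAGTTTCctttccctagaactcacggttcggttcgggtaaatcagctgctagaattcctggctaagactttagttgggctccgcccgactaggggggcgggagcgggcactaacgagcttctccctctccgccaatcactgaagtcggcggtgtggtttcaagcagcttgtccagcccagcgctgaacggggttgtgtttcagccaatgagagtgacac
Xaf1: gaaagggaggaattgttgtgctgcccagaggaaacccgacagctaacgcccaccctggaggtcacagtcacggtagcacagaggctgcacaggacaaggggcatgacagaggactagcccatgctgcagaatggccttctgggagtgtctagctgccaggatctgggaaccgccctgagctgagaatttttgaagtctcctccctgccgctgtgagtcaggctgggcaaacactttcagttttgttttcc
These stretches are Isg15 at chr4:156200819-156201068 (minus strand), Ifit3 at chr19:34583279-34583528 (plus strand), Rsad2 at chr12:26456453-26456702 (minus strand), Stat2 at chr10:128270248-128270497 (plus strand) and Xaf1 at chr11:72301379-72301628 (plus strand). In Isg15 there were 3 overlapping matches that made 1 continuous block, starting 78, 72 and 66 bases before the start site. Ifit3 had 2 separate matches, the nearer at 122 bases before it. Rsad2 had 1 match at 120 bases and Stat2 1 at 222 bases, all counted from the RefSeq start site. For Stat2 this site lies before the gene's start in GENCODE M21. A match is a description of letters, and its absence from a window says only that these letters were not there.

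Each library held 14372212 to 17668334 counts, and all 41 genes passed the filter on low counts that kept 15703 genes. Gstk1 had 1 to 60 counts in knockout libraries and 297 to 830 in wild-type libraries. Xist, the RNA of the inactive X chromosome, had at most 10 counts in each LPS library and at least 11446 in each saline library, while the Y-linked Ddx3y had at least 951 and exactly 0. By these genes the LPS mice were male and the saline mice female, so LPS and sex cannot be told apart in any comparison of LPS with saline. Knockout against wild type lay within 1 sex. Proximal tubule markers were present in every library, at 756 to 1664 summed CPM in LPS libraries and 4922 to 6411 in saline libraries (CPM are counts scaled to a common library size, with TMM factors). On the first principal component, 69.1% of the variance, knockout LPS library AKI-156 lay at -79.4. In knockout AKI-320 it was -18.8 and in knockout AKI-381 -20.1, with wild-type LPS libraries between -111 and -94.1, and saline libraries between 82.8 and 94.2.

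Taken as a set, the genes were a small part of kidney RNA that grew with LPS in both genotypes and grew less in the knockout. Their summed level was 2616 CPM in AKI-320, 3626 CPM in AKI-156 and 2527 CPM in AKI-381, the knockout LPS libraries, against 4929 CPM in AKI-317, 8018 CPM in AKI-319, 9860.5 CPM in AKI-12 and 4973 CPM in AKI-13, the wild-type LPS libraries. Values for LPS libraries are given below in this order of mice. With saline it was 636 to 866 CPM in knockout and 640 to 780 CPM in wild type. The LPS groups did not overlap, the knockout being lower, and the saline groups did. In whole kidney, fewer cells of a type and less RNA per cell cannot be told apart.

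Per length of gene, in the authors' FPKM, Ifitm3 was the most abundant of the 41 in all 4 groups. It encodes a membrane protein that blocks the fusion of viruses with endosomes. It averaged 467 ± 103 FPKM in knockout LPS kidney, 644 ± 64.7 in wild-type LPS kidney, 30.7 ± 4.75 in knockout saline kidney and 28.0 ± 2.71 in wild-type saline kidney (SD, n = 3, 4, 3 and 3). Oas3, a synthetase of the 2-5A messenger that activates RNase L, was the least abundant in all 4 groups, at 0.252 FPKM in knockout LPS kidney and 0.378 FPKM in wild-type LPS kidney. Mx1 changed place between the groups. This antiviral GTPase was next to last in both saline groups and in knockout LPS kidney, at 2.15 ± 1.39 FPKM, but stood at 19.2 ± 9.98 FPKM in wild-type LPS kidney (SD, n = 3 and 4). In many laboratory strains Mx1 carries a deletion that ends its protein early, and gene counts do not show which allele these mice had.

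In the knockout, 36 of the 41 genes were higher with LPS than with saline and 0 were lower, where 14.7% of all tested genes were higher and 12.9% lower (edgeR, adjusted p below 0.05, n = 3 against 3). In wild type, 40 of 41 were higher and 0 lower, where 28.4% of all tested genes were higher and 28.6% lower (edgeR, n = 4 against 3). The median log2 change of the 41 was 1.96 in knockout and 3.53 in wild type, against 0.03 and 0.00 over all tested genes. Every LPS library lay above every saline library in 37 of the 41 in knockout, against 23.3% of all tested genes, and in 39 in wild type, against 29.1%. Markers of cells moved in the same comparisons. Of 5 proximal tubule markers 4 fell with LPS in knockout and 5 in wild type (edgeR), with the summed levels given above. All 7 tested neutrophil markers rose in both (edgeR), with a median log2 change of 5.25 in knockout and 7.83 in wild type. Their summed level was 27.8 to 251 CPM in knockout LPS libraries, 39.3 to 181 in wild-type LPS libraries and at most 1.67 in saline libraries. The part of these in the rise of the 41 genes was not tested. Each genotype was set against its own saline mice, so the group levels compared come from different mice. Both comparisons were fitted together on all 13 libraries with a shared estimate of spread. Their p-values and calls are therefore not independent.

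**Figure D1:**
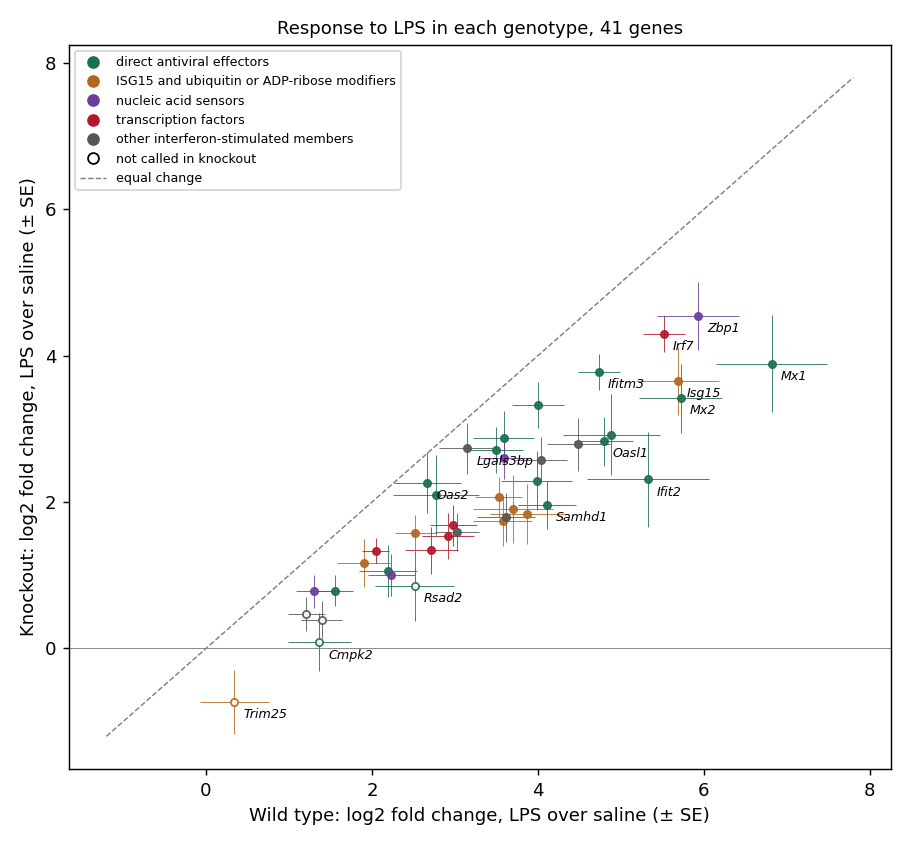
Log2 fold change of LPS over saline for each of the 41 genes, knockout (vertical) against wild type (horizontal), with SE bars and colours by role; open points were not called in the knockout. Every point lies below the dashed line of equal change, from Trim25 at -0.73 in knockout and 0.34 in wild type to Zbp1 at 4.54 and 5.93.

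Among the 17 direct antiviral effectors, 15 rose in knockout and 17 in wild type. Mx1 stood at 5.10, 19.4 and 6.89 CPM in knockout LPS libraries and 0.816, 0.736 and 0.537 CPM in knockout saline libraries. It stood at 72.2, 165, 189 and 44.5 CPM in wild-type LPS libraries and 0.782, 1.04 and 1.29 CPM in wild-type saline libraries. No LPS library reached down to a saline library of its genotype, and the rise was 3.89 ± 0.66 in knockout and 6.82 ± 0.67 in wild type (log2 ± SE). Ifitm3 rose by 3.78 ± 0.25 in knockout and 4.74 ± 0.25 in wild type. Bst2, tetherin, which holds budding virions at the cell surface, rose by 3.32 ± 0.31 in knockout and 4.01 ± 0.31 in wild type. Effectors with small changes included Adar, the enzyme that edits adenosine in double-stranded RNA, at 0.79 ± 0.21 in knockout and 1.56 ± 0.21 in wild type. In the knockout 4 of the 15 calls were lost when 1 library was left out. Adar was lost without AKI-156, knockout saline N1 or N2, Ifit2 without AKI-156, knockout saline N2 or N3, and Oas3 without knockout saline N2 or N3. Eif2ak2, at 1.06 ± 0.35, was lost without AKI-156 or any 1 saline library. Over the alternatives the highest adjusted p (edgeR, DESeq2 or limma-voom) was 0.0558 for Adar, 0.0961 for Ifit2, 0.0527 for Oas3 and 0.179 for Eif2ak2.

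Rsad2 and Cmpk2 were the effectors that did not pass in the knockout. Rsad2 encodes viperin, which turns CTP into a nucleotide that ends viral RNA chains, and Cmpk2 a mitochondrial kinase that makes CTP for it. Rsad2 stood at 57.4, 112 and 50.7 CPM in knockout LPS libraries and 55.3, 19.6 and 47.0 CPM in knockout saline libraries, which overlapped (0.85 ± 0.47, edgeR adjusted p = 0.202). In wild type it rose by 2.52 ± 0.48. Cmpk2 stood at 20.5, 21.01 and 15.3 CPM in knockout LPS libraries and 22.6, 15.5 and 15.5 CPM in knockout saline libraries. These also overlapped, and the difference of 0.08 ± 0.39 changed sign with another sample left out (-0.01 without knockout saline N2 or N3). In wild type Cmpk2 rose by 1.37 ± 0.38, and there too the libraries overlapped. The lowest wild-type LPS library, at 24.4 CPM, lay below the highest wild-type saline library, at 25.9 CPM. Both genes had a saline level well above that of Mx1 in CPM, and per length Rsad2 stood at 11.1 FPKM and Mx1 at 0.202 FPKM in wild-type saline kidney.

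The group of ISG15 and the ubiquitin or ADP-ribose modifiers had 7 of 8 members higher in each genotype, with the knockout call of Trim21 lost without AKI-156, knockout saline N2 or N3. Isg15, the ubiquitin-like protein attached to other proteins during infection, rose by 3.65 ± 0.46 in knockout and 5.68 ± 0.50 in wild type. Usp18, the protease that removes ISG15 and damps the interferon receptor, rose by 1.74 ± 0.34 in knockout and 3.58 ± 0.36 in wild type. The exception was Trim25, the ubiquitin ligase that helps RIG-I signal. It stood at 17.8, 34.4 and 67.7 CPM in knockout LPS libraries and 89.0, 31.8 and 78.5 CPM in knockout saline libraries (-0.73 ± 0.44, edgeR adjusted p = 0.241). Wild-type LPS libraries were close together at 98.2 to 109 CPM and wild-type saline libraries were spread over 49.2 to 114 CPM (0.34 ± 0.41, edgeR adjusted p = 0.494).

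All 4 nucleic acid sensors rose in both genotypes. Zbp1, which binds Z-form nucleic acid and can start necroptosis, had the largest rise of the 41 in the knockout, at 4.54 ± 0.47, with 5.93 ± 0.49 in wild type. The RNA helicases Dhx58 (LGP2), Ifih1 (MDA5) and Ddx58 (RIG-I) rose by 2.61 ± 0.28, 1.005 ± 0.28 and 0.78 ± 0.22 in knockout. In wild type the same helicases rose by 3.59 ± 0.28, 2.23 ± 0.28 and 1.30 ± 0.22. In the knockout the calls of Ifih1 and Ddx58 were lost without knockout saline N2 or N3, and also without AKI-156 for Ifih1 and without AKI-320 for Ddx58. Over the alternatives, edgeR, DESeq2 and limma-voom adjusted p ran from 0.00203 to 0.0679 for Ifih1 and from 0.00607 to 0.0803 for Ddx58.

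The 5 transcription factors of the set also rose in both genotypes. Irf7, the factor that amplifies interferon production, had the smallest p of the 41 in both. It stood at 206, 251 and 155 CPM in knockout LPS libraries and 11.7, 8.52 and 10.9 CPM in knockout saline libraries, a rise of 4.30 ± 0.24 (edgeR adjusted p = 1.3e-07). It stood at 379, 460, 328 and 323 CPM in wild-type LPS libraries and 7.497, 7.25 and 9.67 CPM in wild-type saline libraries, a rise of 5.52 ± 0.25 (edgeR adjusted p = 1.65e-08). Both sets of LPS libraries lay far above their saline libraries. Stat2 and Irf9, the parts of ISGF3 in this set, rose by 1.54 ± 0.31 and 1.34 ± 0.17 in knockout and by 2.91 ± 0.32 and 2.05 ± 0.16 in wild type. Of the 7 remaining genes, 5 rose in knockout and 7 in wild type. Lgals3bp, a secreted galectin-binding glycoprotein, rose by 2.73 ± 0.35 in knockout and 3.15 ± 0.34 in wild type.

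Set against wild type under LPS, the knockout asks whether loss of DsbA-L altered this response, and both groups were male. In the knockout 28 of the 41 were lower, where 6.29% of all tested genes were lower, and 0 were higher, where 8.74% were (edgeR, n = 3 and 4). The median log2 difference was -1.22 for the 41 and 0.00 over all tested genes. In 26 of the 41 every knockout LPS library lay below every wild-type LPS library, against 8.99% of all tested genes. The 28 edgeR calls rest on a spread estimated over all 13 mice: fitted on the 7 LPS libraries alone, only Mx1 and Samhd1 passed, among 54 lower genes in all, with a median for the 41 of -1.196. The count of calls was 9 without AKI-320 and 9 without AKI-381, with 8 genes in common, namely Dhx58, Irf1, Mx1, Mx2, Oasl1, Parp14, Samhd1 and Xaf1. Over all tested genes the count of lower genes also fell, from 988 to 253 without AKI-320 and to 172 without AKI-381. Without AKI-12 the calls of Ifit1, Herc6, Trim25, Ifih1 and Ifi44 were lost, and without AKI-319 those of Ifitm3, Trim25, Ifih1 and Ifi44.

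**Figure D2:**
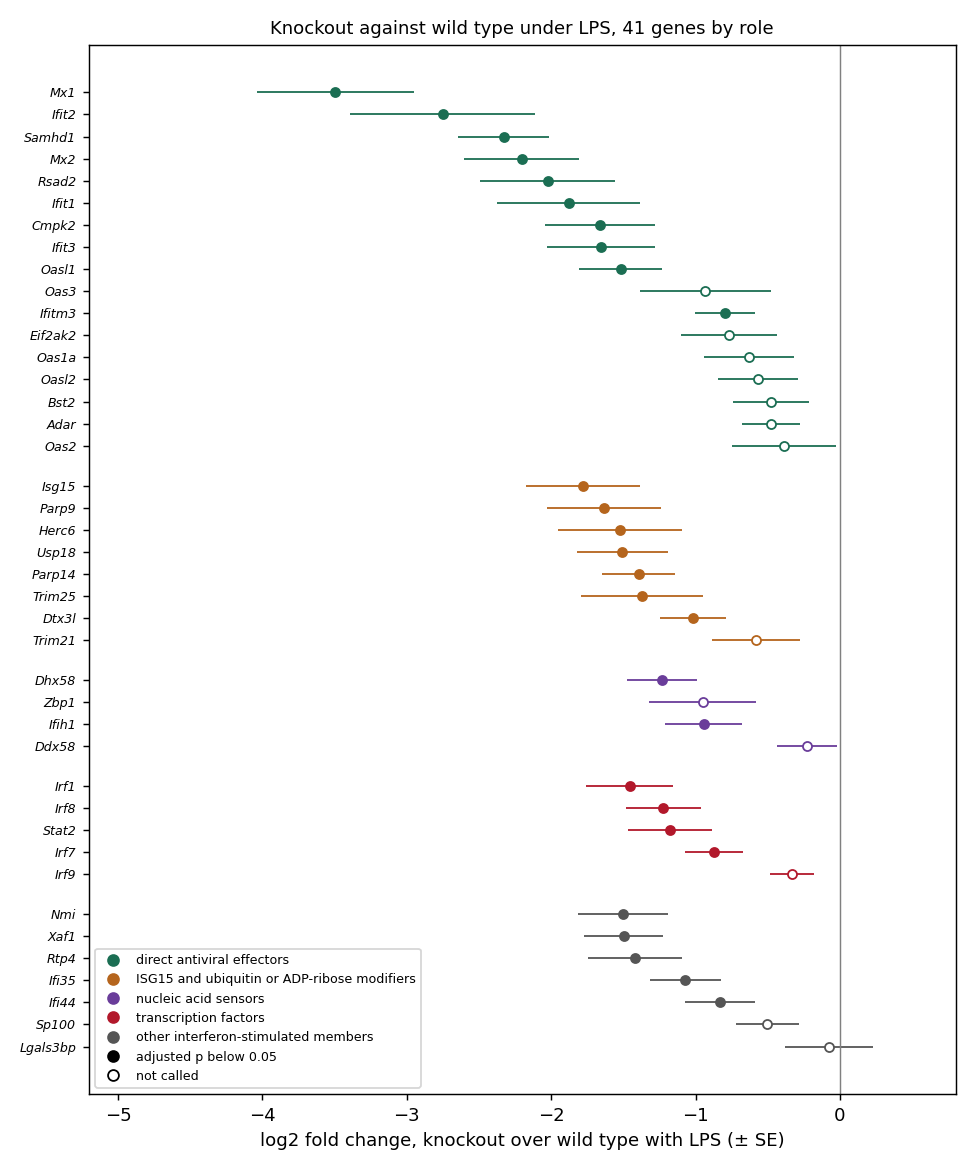
Log2 fold change of knockout over wild type under LPS (± SE) for the 41 genes, in rows grouped and coloured by role; filled points passed edgeR at an adjusted p below 0.05. The points run from Mx1 at -3.49 to Lgals3bp at -0.08, and 28 are filled.

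Of the 17 effectors 10 were lower in the knockout. For Mx1, the 3 knockout LPS libraries named above all lay below the 4 wild-type ones, and the difference was -3.49 ± 0.54 (edgeR adjusted p = 0.00361). Samhd1, which hydrolyses deoxynucleotides and so starves reverse transcription, had 89.2, 184 and 96.7 CPM in knockout LPS libraries and 509, 882, 726 and 357 CPM in wild-type LPS libraries. The groups lay apart, and the difference was -2.33 ± 0.32 (edgeR adjusted p = 0.00257), the smallest p of the 41. Both genes passed in each of the 20 alternatives, which covered scaling, filters, DESeq2, limma-voom, the fit of LPS libraries alone and every library left out. Mx2, the other antiviral GTPase, is annotated as a polymorphic pseudogene in GENCODE M21. It stood at 11.3, 23.6 and 9.28 CPM in knockout LPS libraries and 41.9, 90.4, 102 and 37.2 CPM in wild-type LPS libraries, again with no overlap (-2.20 ± 0.40, edgeR adjusted p = 0.0055).

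The Ifit genes encode proteins that bind viral RNA lacking the host's cap methylation. Ifit2 stood at 70.0, 216 and 75.3 CPM in knockout LPS libraries and 211, 675, 1953 and 404 CPM in wild-type LPS libraries. The difference was large at -2.75 ± 0.64 (edgeR adjusted p = 0.014), but AKI-156 reached the lowest wild-type library and AKI-12 lay far above the other wild-type libraries. Ifit1 and Ifit3 differed by -1.88 ± 0.50 and -1.65 ± 0.38 without overlap. Reads of Ifit3 cannot be told with certainty from its close copy Ifit3b. Rsad2 differed by -2.02 ± 0.47 and Cmpk2 by -1.66 ± 0.38, also without overlap.

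In the 2-5A synthetase family only Oasl1 passed. Oasl1, a synthetase-like protein that binds Irf7 mRNA in mouse and limits its translation, had 14.3, 27.8 and 12.8 CPM in knockout LPS libraries and 51.2, 49.0, 71.6 and 37.4 CPM in wild-type LPS libraries. The groups lay apart, at -1.52 ± 0.29 (edgeR adjusted p = 0.00658). The other members did not pass. Oas2 stood at 22.6, 10.0 and 16.1 CPM in knockout LPS libraries and 28.6, 30.7, 12.7 and 13.01 CPM in wild-type LPS libraries, which overlapped. Its difference was -0.39 ± 0.36, an interval of -1.10 to 0.33 at 2 SE. Oas1a, Oas3 and Oasl2 stood at -0.63 ± 0.31, -0.93 ± 0.45 and -0.57 ± 0.28, and these p-values do not show equal levels. Reads of Oas1a cannot be told with certainty from its close copies. No test of the difference between family members was made.

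**Figure D3:**
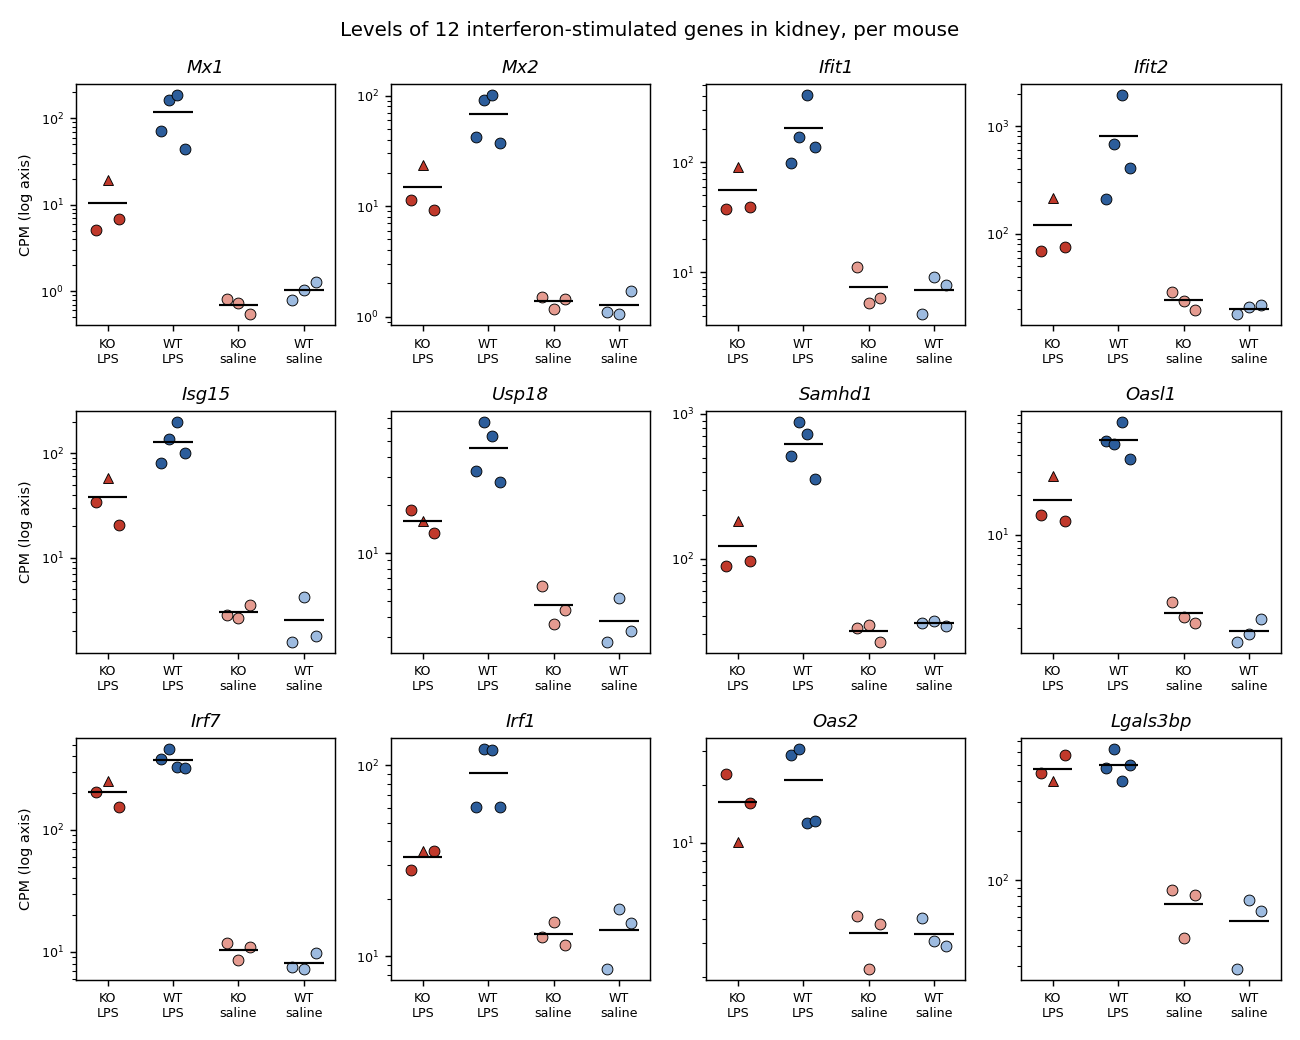
CPM on a log axis for 12 of the genes in each mouse, with knockout LPS, wild-type LPS, knockout saline and wild-type saline from left to right; lines are group means and the triangle is knockout LPS library AKI-156. In Mx1, Mx2, Samhd1, Oasl1, Isg15, Usp18, Irf7 and Irf1 the 3 knockout LPS points lie below the 4 wild-type LPS points, while in Oas2 and Lgals3bp they overlap.

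Of the 8 ISG15 and modifier genes 7 were lower in the knockout. Isg15 had 34.5, 58.2 and 20.7 CPM in knockout LPS libraries and 80.0, 136, 201 and 102 CPM in wild-type LPS libraries, without overlap (-1.78 ± 0.39, edgeR adjusted p = 0.0119). Usp18 had 18.5, 15.8 and 13.3 CPM in knockout LPS libraries and 32.5, 66.1, 53.8 and 27.9 CPM in wild-type LPS libraries, also without overlap (-1.51 ± 0.31, edgeR adjusted p = 0.00951). Herc6, the mouse ligase that joins ISG15 to its targets, differed by -1.52 ± 0.43, with AKI-156 at 98.8 CPM inside the wild-type range of 82.9 to 354 CPM. Parp14 and Parp9, ADP-ribosyltransferase family members, and Dtx3l, the ubiquitin ligase that pairs with Parp9, differed by -1.39 ± 0.25, -1.63 ± 0.39 and -1.02 ± 0.23. Trim25 differed by -1.37 ± 0.42 (edgeR adjusted p = 0.0446) and passed in 9 of the 20 alternatives, where its adjusted p ran from 0.00758 to 0.164. Its call was lost with library totals, with the LPS libraries alone, and without AKI-320, AKI-156, any 1 wild-type LPS library, knockout saline N1 or N3 or wild-type saline N1. Trim21, an intracellular antibody receptor, did not pass (-0.58 ± 0.30, edgeR adjusted p = 0.202).

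Of the 5 transcription factors 4 were lower. Irf1, a factor induced by interferon-gamma and by NF-kB, had 28.2, 35.5 and 35.5 CPM in knockout LPS libraries and 60.5, 122, 120 and 60.6 CPM in wild-type LPS libraries. The groups lay apart (-1.46 ± 0.30, edgeR adjusted p = 0.00901). Irf7 was lower by less, at -0.87 ± 0.20 (edgeR adjusted p = 0.0136), with its libraries apart as given above. Irf8, a factor that macrophages and dendritic cells depend on, and Stat2 differed by -1.22 ± 0.26 and -1.18 ± 0.29. Irf9 had 60.2, 76.2 and 61.5 CPM in knockout LPS libraries and 80.6, 86.6, 89.7 and 75.5 CPM in wild-type LPS libraries, which overlapped by 1 library (-0.33 ± 0.15, edgeR adjusted p = 0.149).

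Among the sensors, Dhx58 (-1.23 ± 0.24) and Ifih1 (-0.94 ± 0.27) were lower in the knockout. Zbp1 (-0.95 ± 0.37) and Ddx58 (-0.23 ± 0.21) did not pass, at edgeR adjusted p = 0.0953 and 0.472. Of the remaining 7 genes 5 were lower. They were Nmi, a protein that binds STATs and other factors (-1.50 ± 0.31), Xaf1, an antagonist of the apoptosis inhibitor XIAP (-1.50 ± 0.28), Rtp4, a chaperone of receptors (-1.42 ± 0.32), Ifi35, the partner of Nmi (-1.07 ± 0.24), and Ifi44 (-0.83 ± 0.24). Sp100, a nuclear body protein, stood at -0.50 ± 0.22 without passing. Lgals3bp was nearest to no difference, with 450, 401 and 574 CPM in knockout LPS libraries and 479, 627, 399 and 499 CPM in wild-type LPS libraries. Its interval ran from -0.68 to 0.53 at 2 SE.

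Scaled by library totals and not by TMM, the median of all genes moved by 0.34 in this comparison, and 3323 genes were higher and 477 lower in the knockout, against 1373 and 988 with TMM. The median of the 41 was then -0.88 and 23 were lower, all of them among the 28. Ddx58, Irf9 and Lgals3bp then stood above 0, at 0.13, 0.00 and 0.27, without passing.

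The knockout LPS mice were not alike, and the genes differed in how. AKI-156 held the highest knockout value of 30 of the 41 genes, where it did so for 38.1% of all tested genes. It reached the lowest wild-type LPS library or more in 11 genes, AKI-320 in 6 and AKI-381 in 6. In 18 genes it exceeded the mean of the other knockout LPS libraries by more than 1.5 times, a limit chosen after the values were seen. Mx1 had a ratio of 3.24, Ifit2 2.98, Ifit1 2.39, Parp9 2.37 and Herc6 2.33. In 9 genes it lay below that mean, with Oas2 at a ratio of 0.518, Ddx58 at 0.646 and Oasl2 at 0.695. The counts of 11, 6, 6, 18 and 9 were not made over all tested genes. They are not shown to be particular to this set, and AKI-156 was also the knockout LPS library nearest to wild type on the first principal component.

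The wild-type LPS library AKI-12 held the highest wild-type value of 15 of the 18 genes raised in AKI-156 and of 5 of the other 23. The same counts were not made over all tested genes. Ifit2 stood at 4.54 times the mean of the other wild-type LPS libraries in AKI-12, Ifit1 at 3.05 and Herc6 at 3.04, while Oas2 stood at 0.526 and Oasl2 at 0.573. Across the 41 genes the log2 ratio of AKI-156 to the other knockout libraries and that of AKI-12 to the other wild-type libraries had Pearson's r of 0.747 and Spearman's rho of 0.725. Across 15238 tested genes with counts in these libraries r was 0.338. Each point takes its values from the same 7 libraries, so these are descriptions of those libraries, and genes are not independent.

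**Figure D4:**
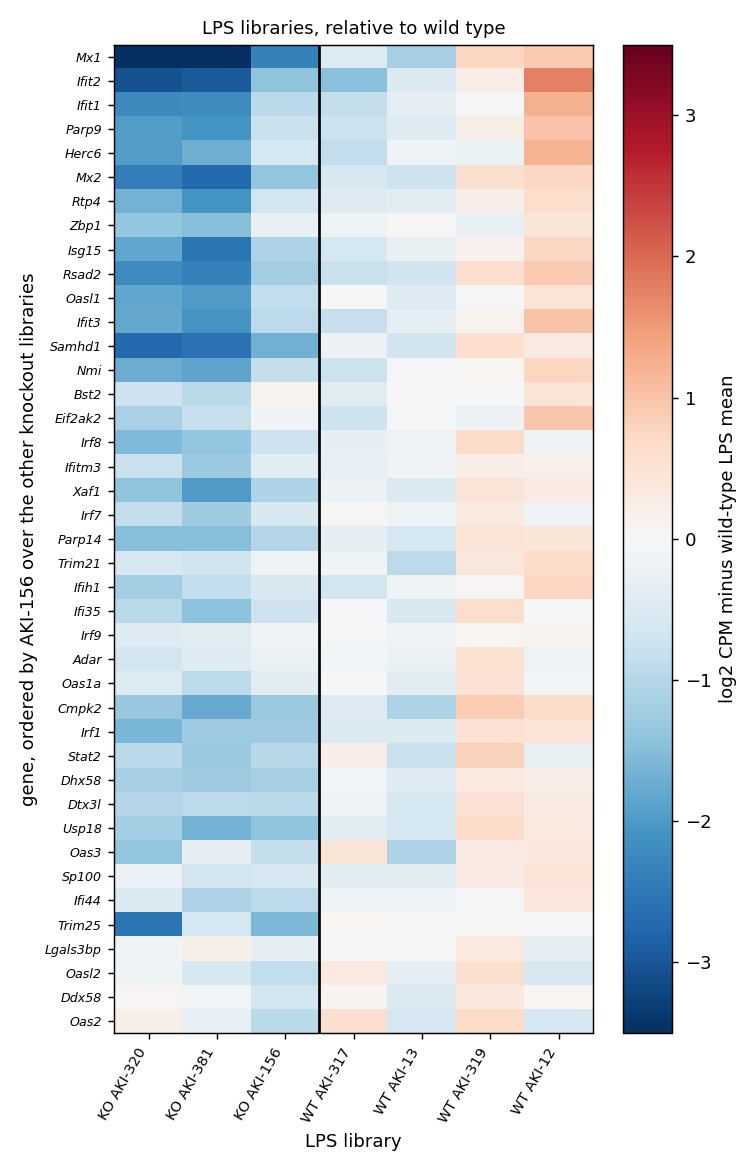
Log2 CPM of the 41 genes in the 7 LPS libraries minus the mean of the wild-type LPS libraries, knockout left and wild type right of the line; rows are ordered by the ratio of AKI-156 to the other knockout libraries, and colours are clipped at 3.5. The order itself puts the rows with a high AKI-156 at the top, from Mx1 at a ratio of 3.24 to Oas2 at 0.518. AKI-12, which did not set the order, is the highest wild-type library in most of the upper rows. Among the rows where AKI-156 lay below the mean of the other knockout libraries, AKI-12 is the highest only for Sp100 and Ifi44.

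Genes that lie side by side gave further detail. Within 200000 bases of each other lay 15 of the 41 genes, in 6 clusters (GRCm38). Rsad2 (chromosome 12, 26442753 to 26456452, minus strand) and Cmpk2 (26469204 to 26479835, plus strand) lie 12751 bases apart and point away from each other. They were the effectors that did not pass with LPS in the knockout. Ifit2, Ifit3 and Ifit1 lie in this order on the plus strand of chromosome 19, from 34550694 to 34650009. All 3 were lower in the knockout under LPS. Parp9 and Dtx3l on chromosome 16 face opposite ways and overlap at their starts, and reads in the overlap cannot be assigned without strand. They sit 54966 bases from Parp14, and all 3 were lower in the knockout.

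Oasl2 and Oasl1 sit 11005 bases apart on chromosome 5, and both rose with LPS in both genotypes. Oasl1 was lower in the knockout with AKI-156 as its highest knockout LPS library. Oasl2 had 97.5, 59.6 and 74.1 CPM in knockout LPS libraries and 137, 160, 73.2 and 86.3 CPM in wild-type LPS libraries, with AKI-156 lowest. The difference between the neighbours was not tested. The cluster of Oas2, Oas3 and Oas1a, also on chromosome 5 (120730333 to 120907521), had no member that passed. Mx1 (97447035 to 97462907) and Mx2 (97535308 to 97560900) on chromosome 16 were both lower.

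The promoter letters were set beside the genotype difference. Of the 13 genes with an ISRE core 7 were lower in the knockout under LPS, with a median difference of -0.93. Of the 19 genes without one 14 were lower, with a median of -1.22. The medians of the LPS response were 2.09 in knockout and 2.91 in wild type with the core, and 1.68 in knockout and 3.02 in wild type without it. The shift between the 2 kinds of gene was not tested.

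With saline 0 of the 41 genes passed between knockout and wild type, where 0.00637% of all tested genes were higher and 0.0127% lower (edgeR, n = 3 each). At an unadjusted p below 0.05 there was 1 gene, Irf9, at 0.38 ± 0.17, and DESeq2 and limma-voom also called 0. The median of the 41 was 0.20, with 31 above 0. Every knockout saline library lay above every wild-type one in 5 of the 41 genes, which is near the background of 9.76% of all tested genes. These were Eif2ak2, the kinase PKR that halts translation, Parp9, Ifih1, Ifi35 and Nmi. Equal saline levels are not shown by these p-values.

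An interaction term, the LPS change in knockout minus that in wild type, was negative for all 41 genes, with a median of -1.30. Its median over all tested genes was 0.00. With library totals the median was -0.95 for the 41 and 0.37 over all tested genes. The term passed for 2, Samhd1 (-2.15 ± 0.44, edgeR adjusted p = 0.0376) and Oasl1 (-1.96 ± 0.45, edgeR adjusted p = 0.046), where 0.745% of all tested genes were lower and 1.36% higher. Irf7 (-1.22 ± 0.30) and Parp14 (-1.46 ± 0.36) came next, at edgeR adjusted p = 0.0518 and 0.0525. The count was 24 without AKI-156, 10 without AKI-13, 1 without AKI-12, 0 without AKI-320, AKI-381, AKI-319 or any 1 saline library, 8 with no filter, 1 with limma-voom and 23 with DESeq2. Lower genes over all tested genes moved as well, from 117 to 1115 without AKI-156 and 613 with DESeq2. They numbered 10 without AKI-320, 8 without AKI-381 and 5 to 20 with 1 saline library left out. A different response to LPS and a different effect of sex between the genotypes cannot be told apart in the interaction term. It shares its libraries with the comparison under LPS and is no independent support for it.

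The rest of the pathway was read from lists that, like the 41 genes, were chosen with earlier results known. None of 15 interferon genes had enough counts to test. Ifnb1 had 3 counts over the 3 knockout LPS libraries and 3 over the 4 wild-type LPS libraries, and Ifng had 3 and 11. Of 11 receptor subunits, kinases and STATs 7 rose with LPS in knockout and 10 in wild type, where 14.7% and 28.4% of all tested genes rose. Between the genotypes under LPS 0 of the 11 passed (edgeR), and 5 had an unadjusted p below 0.05. Stat3, which also answers to interleukins, and Jak1 differed by -0.58 ± 0.23 and -0.05 ± 0.19.

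Of 12 tested genes from TLR4 to the IRFs 2 were lower and 1 higher in the knockout under LPS, where 6.29% of all tested genes were lower and 8.74% higher, so 1 higher gene is near the background. Cd14, the LPS co-receptor, differed by -1.86 ± 0.41, Tbk1 by -0.81 ± 0.24 and Mavs, the mitochondrial adaptor of RIG-I and MDA5, by 1.28 ± 0.28. Of 9 negative regulators of interferon and related signalling 5 were lower, against the same 6.29%. Socs1, the inhibitor of JAK kinases, stood at 2.14 ± 1.26 CPM in knockout LPS kidney and 14.8 ± 9.08 CPM in wild-type LPS kidney (SD, n = 3 and 4), a difference of -2.79 ± 0.65. Ptpn2, a phosphatase that acts on JAK1, differed by -1.55 ± 0.39.

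Related gene groups also had members lower in the knockout under LPS, where 6.29% of all tested genes were lower. Of 56 other interferon-stimulated genes tested 23 were lower and 0 higher, with a median of -0.71. Of 17 GBP and IRG GTPases, which act on vacuoles and membranes of microbes and respond most to interferon-gamma, 15 were lower, with a median of -1.90. Of 19 genes of MHC class I and the immunoproteasome 10 were lower, with a median of -0.63. The 41 antiviral genes, with 28 lower and a median of -1.22, lay between these, and no difference between lists was tested.

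Markers of other cells were read in the same comparison, where 8.74% of all tested genes were higher and 6.29% lower (edgeR). A single call in a short list was not read as a result. Of 8 macrophage markers 5 were higher and 1 lower in the knockout under LPS. Their summed level was 267 to 778 CPM in knockout LPS libraries and 989 to 1693 CPM in wild-type LPS libraries, of which Cd14 made up 157 to 684 and 941 to 1630 CPM. Cx3cr1, Adgre1, C1qa, C1qb and Csf1r were higher in the knockout, by 4.09 ± 0.60, 2.06 ± 0.44, 1.58 ± 0.27, 0.95 ± 0.19 and 0.72 ± 0.17. The first 2 rest on very low levels. Cx3cr1 stood at 1.35 to 5.16 CPM in knockout LPS libraries and 0 to 0.304 CPM in wild-type LPS libraries. Adgre1 stood at 4.34 to 5.24 and 0.260 to 1.91 CPM in the same groups. No macrophage marker was at 0 counts throughout. Of 7 tested neutrophil markers 0 passed (edgeR), at 27.8 to 251 summed CPM in knockout LPS libraries and 39.3 to 181 summed CPM in wild-type LPS libraries. Of 4 plasmacytoid dendritic cell markers 1 was lower, Irf7, itself among the 41, and of 4 tested T and NK cell markers 0 passed (edgeR). Of 6 endothelial markers 4 were higher and 1 lower, at 458 to 576 summed CPM in knockout LPS libraries and 279 to 412 in wild-type LPS libraries. Of 5 proximal tubule markers 2 were lower, the phosphate transporter Slc34a1 (-1.52 ± 0.28) and the glucose transporter Slc5a2 (-0.69 ± 0.19). The other 3 did not pass, and the median log2 difference of the 5 was positive, at 0.43. The summed level of the 5 was 756 to 1046 CPM in knockout LPS libraries and 846 to 1664 CPM in wild-type LPS libraries. Of 2 thick limb markers Umod, uromodulin, was higher (0.82 ± 0.23). The share of counts from mitochondrial genes was 12.6% to 16.6% in knockout LPS libraries and 15.7% to 22.9% in wild-type LPS libraries. The part of these in the lower antiviral genes was not tested.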

How the data were processed

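Kidney RNA of 13 mice was sequenced. The deposited table held whole-number counts and the authors' FPKM per gene for each library, per the file headers. TopHat2 2.0.9, TopHat, HISAT2, edgeR and the human build hg38 are named, per the submitters' processing notes, although the gene IDs are mouse. The sources used here do not name the counting tool or its strand setting. Groups came from the genotype and treatment labels.

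Counts were fitted with edgeR 4.0.16 (R 4.3.3), TMM factors and quasi-likelihood tests on all 13 libraries. The filter by group size and a minimum count of 10 kept 15703 of 34745 genes, and p-values were adjusted over these by Benjamini-Hochberg, with a threshold of 0.05. SE is that of the log2 fold change, and intervals are 2 SE. Depth was 14372212 to 17668334 counts per library. The deposited FPKM values were used to order genes within a group, and group means are given for some genes. No test used them. Replicates differed by more than sampling noise (chi-square per degree of freedom 12.5 to 121.5).

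All 41 genes are named, and of each further list up to 4 called genes with the smallest p. Macrophage markers were an exception, where the 5 that were higher in the knockout under LPS and Cd14 are all named. The 41 genes and all lists were chosen with earlier results of these data known, and the GAS motif was added after the values were seen. Alternatives were RLE factors, library totals, other filters, fits of the compared groups alone, DESeq2 1.42.0, limma-voom (limma 3.58.1), each library left out and, for saline, a replicate block.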

Additional observations from a re-analysis of the deposited data

Results flagged for a closer look

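In 3 of the 41 genes 1 of the 4 wild-type LPS libraries lay far from the rest by Dixon's test, where chance gives about 1 group in 20. Oas3 was low in AKI-13, at 1.501 CPM. Adar and Irf8 were high in AKI-319, at 121 and 164 CPM. Samhd1 and Oasl1 are listed because their LPS response differed between genotypes by the interaction test, at -2.15 and -1.96 on the log2 scale.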

How the results depend on the processing

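The count of genes lower in the knockout under LPS, 28 of 41, was 2 with the LPS groups fitted alone and 9 to 29 with 1 library left out. Over all tested genes the same count was 988, and it was 54 with the LPS groups alone and 172 to 2105 with 1 library left out. Of the 29 without AKI-156, 26 were among the 28. The interaction, with 2 lower genes, gave 8 without a filter, 23 with DESeq2, 1 with limma-voom and 0 to 24 with 1 library left out. Over all tested genes it gave 117 lower genes, then 159 without a filter, 613 with DESeq2, 58 with limma-voom and 5 to 1115 with 1 library left out. Genes higher with LPS in the knockout numbered 29 to 37 over the alternatives, against 36, and in wild type 40 in each. With library totals Ddx58 (0.13), Irf9 (9e-04) and Lgals3bp (0.27) changed sign for knockout against wild type under LPS. With 1 library left out Lgals3bp ran from -0.22 to 0.048, above 0 without AKI-156 or AKI-319, and Cmpk2 for LPS in the knockout from -0.0084 to 0.29, below 0 without knockout saline N2 or N3. The causes were not tested. With saline 0 genes were called under every alternative, including the replicate block, which gave 0. Same-numbered saline libraries had correlations of 0.018, -0.050 and -0.030 in their deviations, so the numbers were not taken to pair mice. At 3 to 4 mice a group, small differences were not detectable, and LPS cannot be told apart from sex.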
